A study of Homo sapiens with 16 samples.

Results

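The genes described here are the HIF factors and a set of genes that they are known to induce in hypoxia: HIF1A, EPAS1, EGLN1, EGLN3, VEGFA, ANGPTL4, CA9, NDRG1, ADM and BNIP3. They were chosen by name, with earlier results of these data known. Of these 10 genes, 9 had values, on 20 probe sets, among 19775 genes measured in all, and CA9 was not analysed here. A probe set is the group of short array probes that reports on 1 transcript region. For each gene the values given first are those of its brightest probe set, the one with the highest average signal, and the other probe sets are given beside it.

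Hypoxia-inducible factor is a pair of an oxygen-sensitive alpha subunit and a constant partner, ARNT. When oxygen is present, the prolyl hydroxylases of the EGLN family mark the alpha subunit, and the VHL ubiquitin ligase has it destroyed, so the factor is controlled mainly at the level of its protein, which the arrays do not measure. When the alpha subunit is stable, the pair binds the letters ACGTG or GCGTG in DNA and raises genes for blood vessel growth, glycolysis and the clearance of mitochondria. In breast tumours these targets are known as marks of poorly oxygenated areas.

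The study's question is how the use of glucose sets the genes that mammary cells express. MDA-MB-231 cells, a human breast cancer line, and MCF10A cells, an immortalized human mammary epithelial line, were seeded sparsely, given 17.5 mM glucose in the medium and treated for 24 h. The 4 groups, of 4 arrays each from biological replicates with the letters A to D, were MDA-MB-231 with 50 mM 2-deoxy-glucose (2DG), MDA-MB-231 with water as vehicle, MCF10A with 50 mM 2DG, and MCF10A with vehicle. 2DG is a glucose analogue that hexokinase phosphorylates and that blocks glycolysis. The labels name no change in oxygen for any group. The medium of MDA-MB-231 held 2 mM glutamine and 10% fetal bovine serum, and that of MCF10A held 1 mM glutamine and 5% horse serum with hydrocortisone, cholera toxin, insulin and hEGF (human epidermal growth factor), so line and medium cannot be told apart.

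Values are log2 summaries, so a difference of 1 is a doubling, and they are compared only within a probe set. A gene is called where a limma fit gave its difference a p under 0.05 after Benjamini-Hochberg adjustment across the 19775 genes, and "rose" or "fell" is written only of such genes. Errors are the SE of the fit, or the SD over the 4 arrays of a group. The cell lines carried their markers. A list of 6 basal epithelial genes averaged between 7.14 and 7.61 over the MDA-MB-231 arrays and between 12.85 and 13.17 over the MCF10A arrays, and 5 of 6 mesenchymal genes were higher in MDA-MB-231, SPARC being the exception. Luminal genes, 6 in number, averaged between 8.07 and 8.94. Of 6 genes of blood and endothelium, 2 averaged under 6 in each group, and the mean of the 6 lay between 5.78 and 6.20. The log2 ratio of the 3' to the 5' actin control, a sign of RNA integrity, was 1.03 ± 0.0714 in MDA-MB-231 with 2DG, 0.598 ± 0.331 in MDA-MB-231 on vehicle, 0.55 ± 0.0678 in MCF10A with 2DG and 0.393 ± 0.067 in MCF10A on vehicle (SD, n = 4 each). It thus moved with 2DG in both lines, and MDA-MB-231 vehicle replicate B, at 1.09, lay near the 2DG arrays. Calls of the 9 genes on their brightest probe sets that changed without this array, or with the ratio in the fit, are given with both adjusted p-values. Counts over the gene lists moved as well, and only some of these are given.

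The promoters of 4 of the genes are shown because ADM, ANGPTL4 and BNIP3 had the largest differences of response between the lines, and EPAS1 is a factor that rose in both. The windows run over 250 bases before and 50 bases after the gene start and come from RefSeq, build GRCh38.p14. Capitals mark ACGTG or GCGTG on either strand. EPAS1 lies at chr2:46297157-46297456 on the plus strand, ADM at chr11:10304823-10305122 on the plus strand, ANGPTL4 at chr19:8363905-8364204 on the plus strand and BNIP3 at chr10:131981874-131982173 on the minus strand, each written in the direction of its gene.
EPAS1: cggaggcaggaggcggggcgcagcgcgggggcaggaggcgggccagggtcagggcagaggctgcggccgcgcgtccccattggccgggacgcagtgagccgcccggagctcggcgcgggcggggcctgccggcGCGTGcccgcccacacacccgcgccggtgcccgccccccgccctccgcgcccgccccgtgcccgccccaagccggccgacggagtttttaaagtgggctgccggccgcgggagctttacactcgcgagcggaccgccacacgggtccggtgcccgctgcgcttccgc
ADM: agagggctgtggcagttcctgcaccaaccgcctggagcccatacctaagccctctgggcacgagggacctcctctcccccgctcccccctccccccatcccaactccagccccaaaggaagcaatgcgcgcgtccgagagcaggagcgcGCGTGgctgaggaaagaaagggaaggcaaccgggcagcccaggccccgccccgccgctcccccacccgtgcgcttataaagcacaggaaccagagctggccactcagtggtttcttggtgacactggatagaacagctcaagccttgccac
ANGPTL4: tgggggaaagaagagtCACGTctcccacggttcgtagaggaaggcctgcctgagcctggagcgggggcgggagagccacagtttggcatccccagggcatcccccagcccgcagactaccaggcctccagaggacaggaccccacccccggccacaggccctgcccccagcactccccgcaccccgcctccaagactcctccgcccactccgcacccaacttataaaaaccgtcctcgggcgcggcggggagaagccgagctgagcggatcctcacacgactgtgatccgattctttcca
BNIP3: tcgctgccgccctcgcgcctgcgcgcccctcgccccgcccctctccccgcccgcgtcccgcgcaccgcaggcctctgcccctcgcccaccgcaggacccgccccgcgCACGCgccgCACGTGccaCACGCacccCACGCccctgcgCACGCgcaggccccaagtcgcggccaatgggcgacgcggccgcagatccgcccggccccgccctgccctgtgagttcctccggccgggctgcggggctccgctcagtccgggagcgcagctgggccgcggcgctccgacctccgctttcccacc
EPAS1 held 1 match, GCGTG at -117 from the start, and ADM held 1, GCGTG at -101. ANGPTL4 held 1, ACGTG on the opposite strand at -234. BNIP3 held 6 matches between -143 and -104, of which those at -134 and -133 are the same letters CACGTG read on each strand, which are also an E-box. Of 35116 RefSeq windows of this length, 48.4% held at least 1 match and 10.1% held 3 or more. Windows of 8 of the 10 genes were searched, VEGFA and NDRG1 being left out, and 7 of these 9 windows held a match. A match is a run of letters and no measured binding.

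In both lines 2DG was followed by higher RNA of EPAS1, VEGFA and NDRG1, by 2.26-fold or more on the brightest probe sets. No other measured gene rose by as much on its brightest probe set in either line. ADM fell 2.72-fold in MDA-MB-231, ANGPTL4 fell 3.70-fold in MCF10A, and HIF1A, EGLN1, EGLN3 and BNIP3 had log2 changes between -0.38 and 0.26 on their brightest probe sets in either line. In MDA-MB-231, 3 of the 9 genes rose (EPAS1, VEGFA and NDRG1), 3 fell (EGLN1, ADM and BNIP3) and 3 were not called. The share called was 66.7%, beside a background of 50.9% of all genes (25.5% higher and 25.4% lower), and the median change was 0.02, beside 0.03 over all genes. In MCF10A, 6 rose (HIF1A, EPAS1, EGLN1, VEGFA, NDRG1 and BNIP3), 2 fell (ANGPTL4 and ADM) and EGLN3 was not called. That share was 88.9%, beside 54.2% of all genes (29.0% higher and 25.2% lower), with a median change of 0.18 beside 0.02 over all genes. With most genes called, a call by itself sets no gene apart, and the size of the change tells more. Changes of at least 1 were found in 4 of the 9 genes in MDA-MB-231, beside 7.79% of all genes, and in 4 of 9 in MCF10A, beside 11.2%. Since the genes were chosen with earlier results known, these counts are descriptions. The arrays measured bulk RNA, so fewer cells with a transcript and less of it per cell cannot be told apart.

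**Figure D1:**
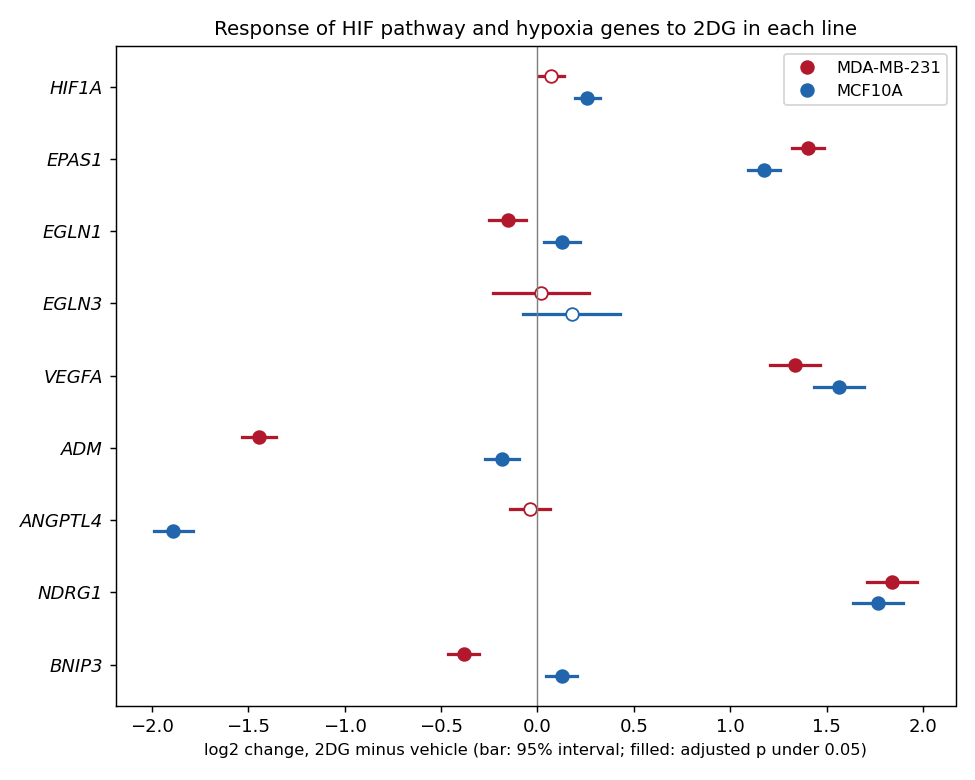
Log2 change with 2DG relative to vehicle (x axis) for each measured gene, with MDA-MB-231 above MCF10A in each pair. Bars are 95% intervals of the fit over 16 arrays, and filled points had an adjusted p under 0.05. EPAS1, VEGFA and NDRG1 lie to the right in both lines, ADM lies far to the left in MDA-MB-231 only, and ANGPTL4 far to the left in MCF10A only.

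The alpha subunits were examined first. HIF1A encodes the alpha subunit of the broadly expressed factor. Its log2 values were 13.56, 13.53, 13.61 and 13.54 in MDA-MB-231 with 2DG, against 13.44, 13.51, 13.51 and 13.49 on vehicle. In MCF10A they were 13.62, 13.64, 13.65 and 13.62 with 2DG, against 13.37, 13.39, 13.37 and 13.37 on vehicle. In both lines every 2DG array lay above every vehicle array, by a narrow margin in MDA-MB-231. The change of 0.07 ± 0.0305 in MDA-MB-231 was not called (adjusted p = 0.0599, 95% interval 0.0076 to 0.137), and without MDA-MB-231 vehicle replicate B it was 0.08 with an adjusted p of 0.049. In MCF10A HIF1A rose by 0.26 ± 0.0305 (adjusted p = 1.41e-06), which is 1.20-fold. HIF1A values were near the top of the range of all values, 2.38 to 15.15, where arrays can understate a change.

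EPAS1 encodes the alpha subunit of the second factor, HIF-2, best known from endothelium and from kidney cancer. With 2DG its values were 11.07, 11.11, 11.13 and 11.12 in MDA-MB-231, against 9.63, 9.77, 9.76 and 9.66 on vehicle. The MCF10A arrays had 13.12, 13.16, 13.12 and 13.11 with 2DG, against 11.99, 11.92, 11.99 and 11.91 on vehicle. The 2DG arrays were high in both lines with a wide gap to the vehicle arrays, and the MDA-MB-231 arrays with 2DG still lay under the MCF10A vehicle arrays. EPAS1 rose by 1.40 ± 0.0382 in MDA-MB-231, 2.64-fold (adjusted p = 3.23e-14), and by 1.18 ± 0.0382 in MCF10A, 2.26-fold (adjusted p = 1.14e-13). A dimmer probe set, 200879_s_at, also rose, by 0.41 in MDA-MB-231 and 0.64 in MCF10A. The dimmest, 241055_at with a mean of 3.44, had changes of -0.01 and 0.04 that were not called. The mean of the 3 probe sets rose by 0.60 in MDA-MB-231 and 0.62 in MCF10A. HIF3A, the third alpha subunit, had changes of -0.02 in MDA-MB-231 and -0.09 in MCF10A, neither called.

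**Figure D2:**
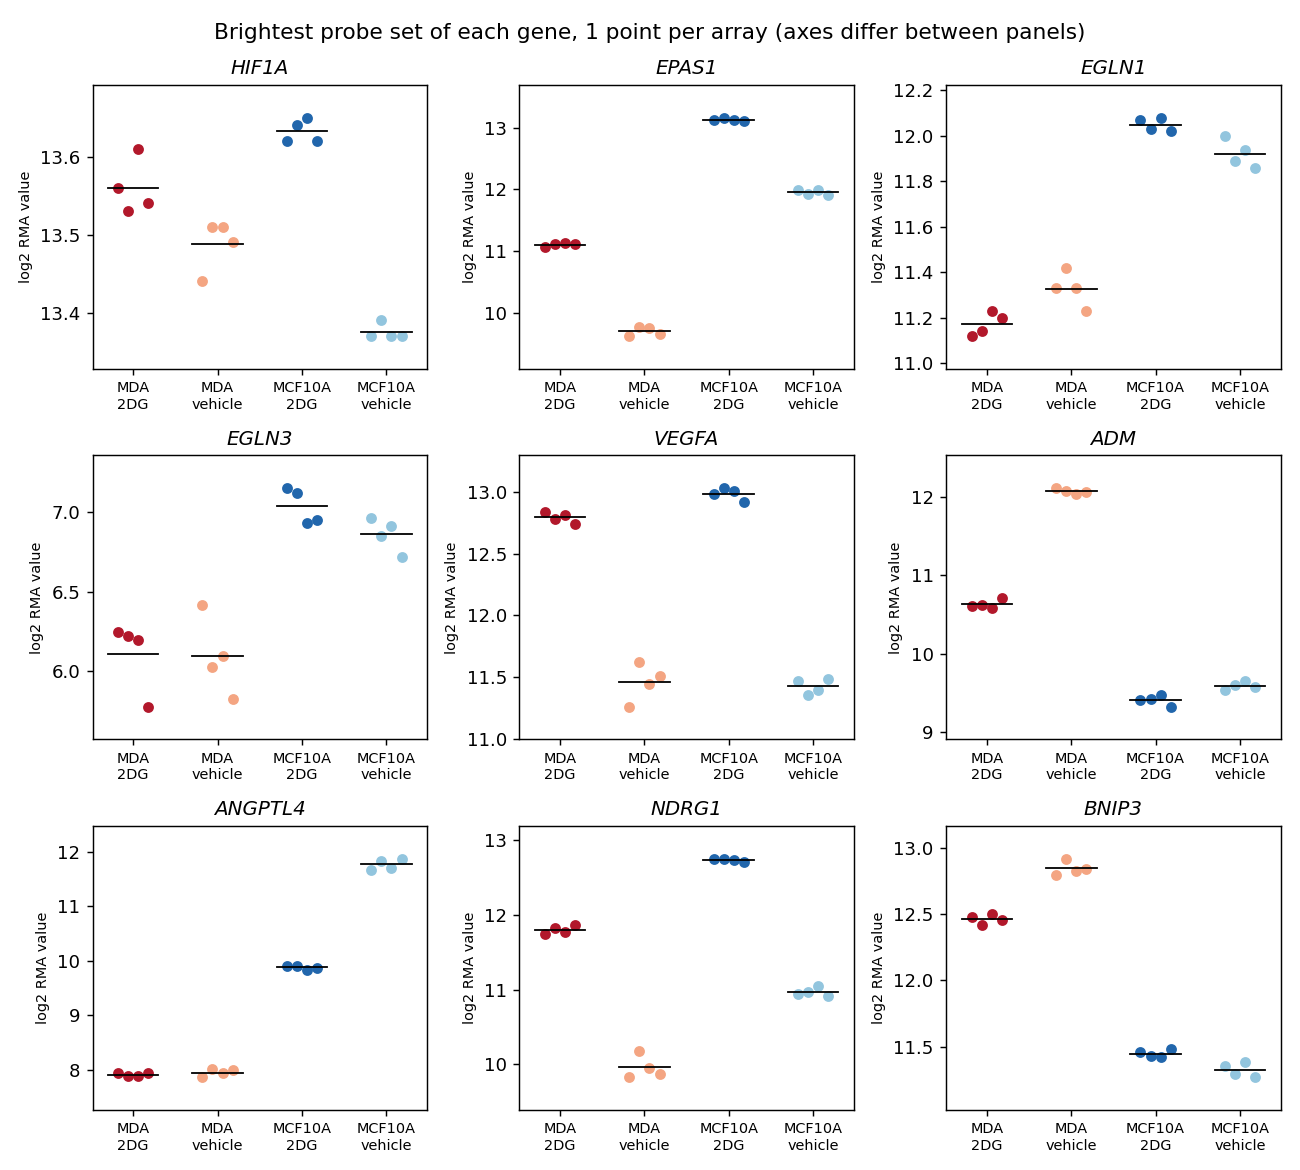
Log2 value (y axis, scale differing between panels) of the brightest probe set of each gene, with 1 point per array and the groups in the order MDA-MB-231 2DG, MDA-MB-231 vehicle, MCF10A 2DG and MCF10A vehicle. The 4 arrays of a group lie close together for most genes, and the widest groups are those of EGLN3 in MDA-MB-231, with SDs of 0.223 with 2DG and 0.245 on vehicle.

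EGLN1 and EGLN3 encode prolyl hydroxylases that mark the alpha subunits, and both are themselves known targets of the factor. For the brightest EGLN1 probe set, the values were 11.12, 11.14, 11.23 and 11.20 in MDA-MB-231 with 2DG, against 11.33, 11.42, 11.33 and 11.23 on vehicle. The groups met at 1 value, where 2DG replicate C equalled vehicle replicate D. In MCF10A the values were 12.07, 12.03, 12.08 and 12.02 with 2DG, against 12, 11.89, 11.94 and 11.86 on vehicle, with no overlap. EGLN1 fell by 0.155 ± 0.0445 in MDA-MB-231 (adjusted p = 0.00757) and rose by 0.13 ± 0.0445 in MCF10A (adjusted p = 0.0229). The sign in MDA-MB-231 depended on the probe set. There 221497_x_at rose by 0.67 (adjusted p = 5.1e-09 over all probe sets) and 224314_s_at rose by 0.99 (adjusted p = 8.3e-12), while 223045_at had a change of 0.10 that was not called. In MCF10A the same 3 probe sets had changes of -0.05, -0.02 and -0.08, none called. No single direction can therefore be given for EGLN1 in MDA-MB-231, and the rise in MCF10A rests on 1 of 4 probe sets.

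EGLN3 had values of 6.25, 6.22, 6.20 and 5.78 in MDA-MB-231 with 2DG, against 6.42, 6.03, 6.10 and 5.83 on vehicle. Those of MCF10A were 7.15, 7.12, 6.93 and 6.95 with 2DG, against 6.96, 6.85, 6.91 and 6.72 on vehicle. The groups overlapped in both lines. The change in MDA-MB-231 was 0.02 ± 0.118 (95% interval -0.233 to 0.268, adjusted p = 0.922). In MCF10A the change was 0.18 ± 0.118 (95% interval -0.0728 to 0.428, adjusted p = 0.229). Changes of either sign within these intervals were not excluded. With the replicate letter as a block in the limma fit, the MCF10A change had an SE of 0.0643 and was called (adjusted p = 0.041). The other EGLN3 probe set, 219232_s_at, with a mean of 4.40, fell by 0.28 in MDA-MB-231 (adjusted p = 0.015) and had a change of -0.20 in MCF10A that was not called.

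VEGFA, ADM and ANGPTL4 are secreted proteins. VEGFA encodes the main growth factor of blood vessels. Its values were 12.84, 12.78, 12.81 and 12.74 in MDA-MB-231 with 2DG, against 11.26, 11.62, 11.44 and 11.51 on vehicle. In MCF10A they were 12.98, 13.03, 13.01 and 12.92 with 2DG, against 11.47, 11.35, 11.39 and 11.48 on vehicle. In both lines the 2DG arrays were high and lay more than 1 log2 unit above the highest vehicle array. VEGFA rose by 1.34 ± 0.061 in MDA-MB-231, 2.52-fold (adjusted p = 1.25e-11), and by 1.56 ± 0.061 in MCF10A, 2.95-fold (adjusted p = 1.11e-12). Its 3 other probe sets rose in both lines as well, by 1.36 to 2.26 in MDA-MB-231 and by 0.79 to 2.21 in MCF10A. When the actin ratio was added to the fit, the rise in MDA-MB-231 was 1.19 ± 0.0699.

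ADM encodes adrenomedullin, a peptide that widens blood vessels. In MDA-MB-231 its values were 10.61, 10.62, 10.58 and 10.71 with 2DG, against 12.11, 12.08, 12.04 and 12.06 on vehicle. The MCF10A arrays had 9.41, 9.43, 9.48 and 9.33 with 2DG, against 9.54, 9.60, 9.66 and 9.58 on vehicle. The 2DG arrays were low in both lines without overlap, by a wide gap in MDA-MB-231 and a narrow gap in MCF10A. ADM fell by 1.44 ± 0.0412 in MDA-MB-231, 2.72-fold (adjusted p = 5.41e-14), and by 0.18 ± 0.0412 in MCF10A (adjusted p = 0.00112). It is measured by a single probe set. ADM and VEGFA, both induced in hypoxia and both acting on vessels, thus moved in opposite directions in each line.

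ANGPTL4 encodes a secreted inhibitor of lipoprotein lipase. With 2DG its values were 7.95, 7.89, 7.88 and 7.94 in MDA-MB-231, against 7.87, 8.01, 7.94 and 7.99 on vehicle, and these groups overlapped. In MCF10A the values were 9.90, 9.91, 9.83 and 9.87 with 2DG, against 11.66, 11.83, 11.70 and 11.87 on vehicle. The MCF10A arrays with 2DG were low, and still above every MDA-MB-231 array. The change in MDA-MB-231 was -0.04 ± 0.048 (95% interval -0.14 to 0.0647, adjusted p = 0.567). In MCF10A ANGPTL4 fell by 1.89 ± 0.048, 3.70-fold (adjusted p = 5.67e-15). The other probe set, 223333_s_at, had a change of -0.17 in MDA-MB-231 that was not called and fell by 2.27 in MCF10A.

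NDRG1 and BNIP3 act inside the cell. NDRG1, a gene known to respond to hypoxia and to other stress, had values of 11.74, 11.82, 11.77 and 11.86 in MDA-MB-231 with 2DG, against 9.83, 10.18, 9.95 and 9.87 on vehicle. Those of MCF10A were 12.75, 12.75, 12.73 and 12.71 with 2DG, against 10.94, 10.97, 11.05 and 10.92 on vehicle. The 2DG arrays were high in both lines with no overlap. NDRG1 rose by 1.84 ± 0.061 in MDA-MB-231, 3.58-fold (adjusted p = 2.97e-13), and by 1.77 ± 0.061 in MCF10A, 3.40-fold (adjusted p = 2.43e-13). It has 1 probe set. When the actin ratio was added to the fit, the rises were 1.69 ± 0.0672 in MDA-MB-231 and 1.71 ± 0.0506 in MCF10A.

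BNIP3 encodes a receptor on the mitochondrial outer membrane that marks mitochondria for autophagy. Its values were 12.48, 12.42, 12.50 and 12.46 in MDA-MB-231 with 2DG, against 12.80, 12.92, 12.83 and 12.84 on vehicle. In MCF10A they were 11.46, 11.43, 11.42 and 11.48 with 2DG, against 11.35, 11.29, 11.38 and 11.27 on vehicle. The 2DG arrays were low in MDA-MB-231 and high in MCF10A, with no overlap in either line. BNIP3 fell by 0.38 ± 0.0371 in MDA-MB-231 (adjusted p = 1.45e-07) and rose by 0.13 ± 0.0371 in MCF10A (adjusted p = 0.00873). Its other probe set, 201848_s_at, fell by 0.35 in MDA-MB-231 (adjusted p = 1.4e-05) and had a change of -0.05 in MCF10A that was not called, so the fall in MDA-MB-231 was seen on both probe sets and the rise in MCF10A on 1 of 2. The promoter of BNIP3, shown above, held the most matches of the 9 windows, and no binding was measured.

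**Figure D3:**
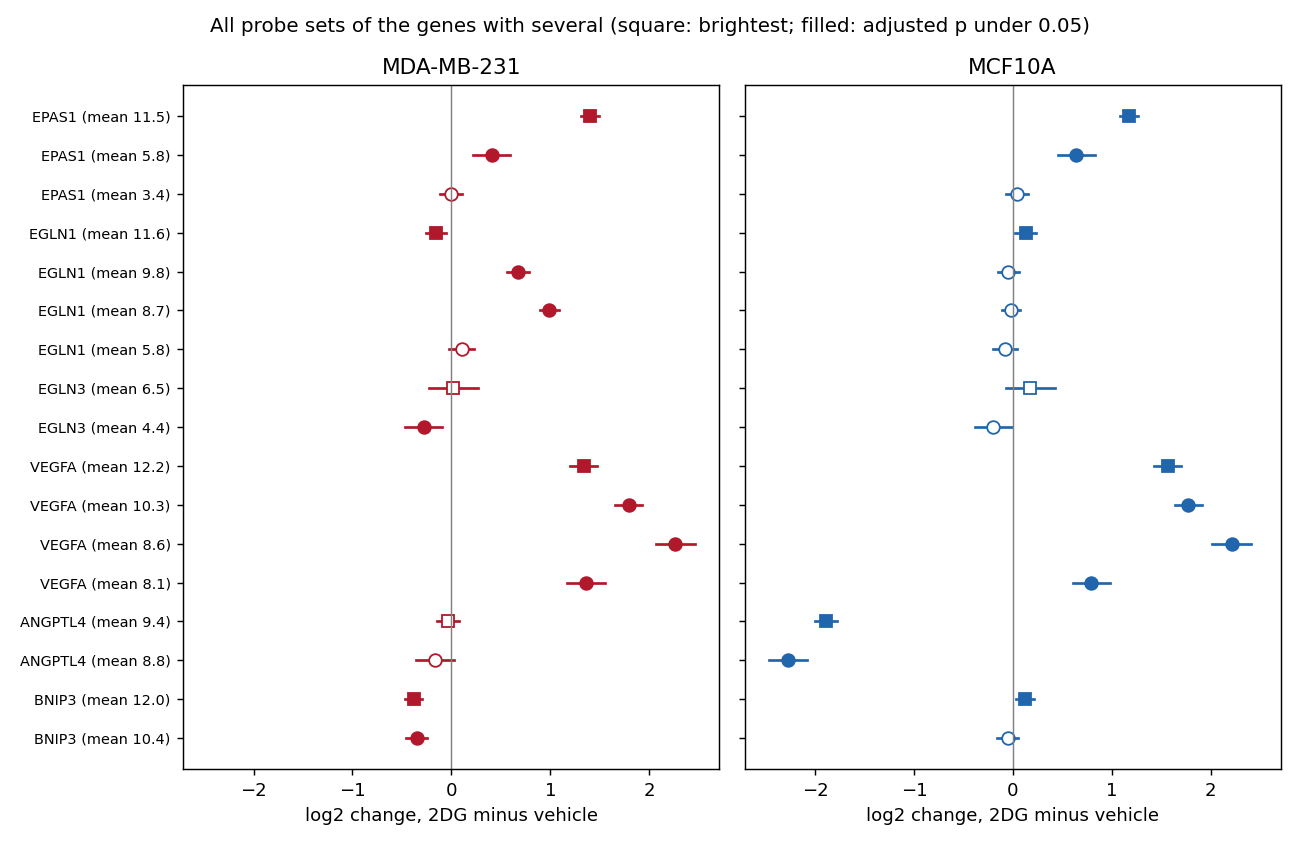
Log2 change with 2DG relative to vehicle (x axis) for every probe set of the genes with more than 1, in MDA-MB-231 (left) and MCF10A (right), with 95% intervals. Squares are the brightest probe set, the number beside a gene is the mean log2 value of the probe set, and filled points had an adjusted p under 0.05 over all probe sets. All 4 VEGFA probe sets lie to the right in both lines, while in MDA-MB-231 the brightest EGLN1 probe set lies left of 0 and the other 3 right of it.

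Whether the lines responded differently was tested as the difference of their responses, MDA-MB-231 minus MCF10A. It was called for 7 of the 9 genes, beside a background of 45.8% of all genes (22.3% higher and 23.6% lower), with 2 genes higher (EPAS1 and ANGPTL4) and 5 lower (HIF1A, EGLN1, VEGFA, ADM and BNIP3). Differences of at least 1 were found in ANGPTL4 and ADM, 2 of 9 genes, beside 8.90% of all genes. ANGPTL4 had a difference of 1.85 ± 0.0679 (adjusted p = 2.63e-12), since it fell in MCF10A and was not called in MDA-MB-231. ADM had a difference of -1.26 ± 0.0582 (adjusted p = 3.55e-11), with the larger fall in MDA-MB-231. The difference of BNIP3 was -0.51 ± 0.0524 (adjusted p = 4.88e-07), and its signs were opposite in the lines. On its other probe set it was -0.30. For ANGPTL4 the other probe set gave 2.11.

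The remaining differences were smaller on the brightest probe sets. EPAS1 rose more in MDA-MB-231, by 0.23 ± 0.054 (adjusted p = 0.00219), though its dimmer probe set had a difference of -0.24 that was not called. HIF1A had a difference of -0.19 ± 0.0431 (adjusted p = 0.0019). The difference of VEGFA, -0.23 ± 0.0862, had an adjusted p of 0.0412 on the brightest probe set and lost the call when any 1 of 11 arrays was left out. Without MDA-MB-231 vehicle replicate B, 1 of these arrays, it was -0.173 with an adjusted p of 0.0792. On 210513_s_at the VEGFA difference had the opposite sign, at 0.57 (adjusted p = 0.0017). EGLN1 had a difference of -0.28 ± 0.0629 (adjusted p = 0.0013) on the brightest probe set and of 0.72 and 1.01 on 2 others, so its direction is not settled. NDRG1 had a difference of 0.08 ± 0.0863 (95% interval -0.109 to 0.259, adjusted p = 0.54), and without MDA-MB-231 vehicle replicate B it was 0.15 with an adjusted p of 0.0491. EGLN3 had a difference of -0.16 (95% interval -0.514 to 0.194, adjusted p = 0.493).

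The lines themselves were also set against each other. With 2DG, 8 of the 9 genes differed between MDA-MB-231 and MCF10A, beside 59.5% of all genes (30.7% higher and 28.8% lower), with 2 higher in MDA-MB-231 (ADM and BNIP3) and 6 lower. On vehicle 8 of 9 differed, beside 56.0% of all genes (29.2% higher and 26.8% lower), with 3 higher in MDA-MB-231 (HIF1A, ADM and BNIP3) and 5 lower (EPAS1, EGLN1, EGLN3, ANGPTL4 and NDRG1). Differences of at least 1 were found in 4 of 9 genes with 2DG, beside 17.9% of all genes, and in 5 of 9 on vehicle, beside 13.0%. ANGPTL4 was 3.90-fold lower in MDA-MB-231 with 2DG (-1.96, adjusted p = 1.55e-15) and 14.1-fold lower on vehicle (-3.81, adjusted p = 1.07e-18). EPAS1 was lower in MDA-MB-231, with differences of -2.02 with 2DG (adjusted p = 6.68e-17) and -2.25 on vehicle (adjusted p = 3.33e-17). Its dimmer probe set 200879_s_at gave -0.70 with 2DG and -0.47 on vehicle, both called, and 241055_at was not called, so that the mean of all 3 gave -0.93 with 2DG and -0.91 on vehicle. ADM was higher in MDA-MB-231, 2.33-fold with 2DG (1.22, adjusted p = 9.84e-14) and 5.57-fold on vehicle (2.48, adjusted p = 2.53e-17). BNIP3 was higher in MDA-MB-231 by 1.02 with 2DG and by 1.53 on vehicle.

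NDRG1 was lower in MDA-MB-231, with differences of -0.94 with 2DG and -1.01 on vehicle. The brightest EGLN1 probe set was lower as well, with -0.88 with 2DG and -0.60 on vehicle. With 2DG, 221497_x_at was lower by a smaller amount (-0.415), while 224314_s_at (-0.11, adjusted p = 0.0549) and 223045_at (0.04) were not called. On vehicle these 3 probe sets gave -1.14, -1.12 and -0.14, the last not called. The mean of all 4 EGLN1 probe sets gave -0.34 with 2DG and -0.75 on vehicle. EGLN3 was lower in MDA-MB-231 on both probe sets, with -0.93 and -0.52 with 2DG, and -0.77 and -0.43 on vehicle. HIF1A had a difference of -0.07 with 2DG that was not called (adjusted p = 0.0519, and 0.0455 without MDA-MB-231 vehicle replicate B, where all 9 genes were called) and was higher in MDA-MB-231 by 0.11 on vehicle (adjusted p = 0.00452). VEGFA was lower in MDA-MB-231 with 2DG (-0.19, adjusted p = 0.012, and -0.353 with the actin ratio in the fit), and on vehicle it had a difference of 0.04 that was not called (95% interval -0.0948 to 0.165, adjusted p = 0.671), with overlapping arrays. On 2 other VEGFA probe sets the difference with 2DG was higher in MDA-MB-231 and called.

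The order of the group means differed from gene to gene. EPAS1 was highest in MCF10A with 2DG, then MCF10A on vehicle, MDA-MB-231 with 2DG and MDA-MB-231 on vehicle, with no overlap of neighbours, and EGLN3 had the same order with overlap within each line. VEGFA and HIF1A were highest in MCF10A with 2DG, then MDA-MB-231 with 2DG, MDA-MB-231 on vehicle and MCF10A on vehicle, and the vehicle groups of VEGFA overlapped. NDRG1 ran from MCF10A with 2DG through MDA-MB-231 with 2DG and MCF10A on vehicle down to MDA-MB-231 on vehicle. ADM had MDA-MB-231 on vehicle highest, then MDA-MB-231 with 2DG, MCF10A on vehicle and MCF10A with 2DG. BNIP3 differed from ADM only in that MCF10A with 2DG lay above MCF10A on vehicle. ANGPTL4 was highest in MCF10A on vehicle, then MCF10A with 2DG, with the MDA-MB-231 groups low and overlapping.

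**Figure D4:**
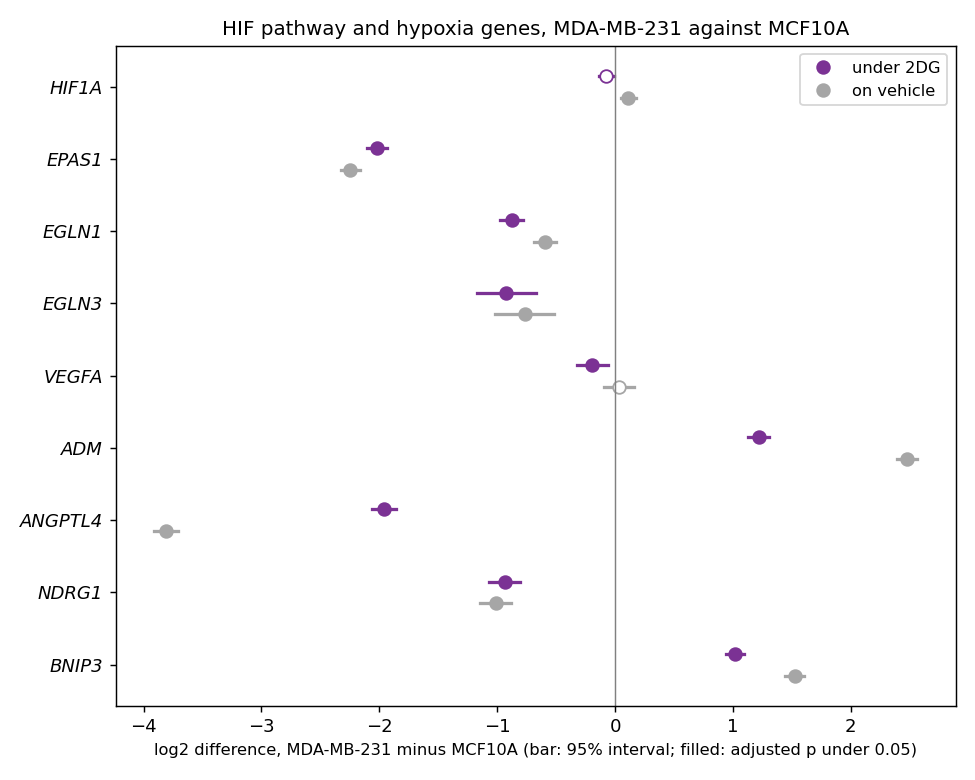
Log2 difference of MDA-MB-231 minus MCF10A (x axis) for each gene, with 2DG above vehicle in each pair. Bars are 95% intervals of the fit over 16 arrays and filled points had an adjusted p under 0.05. ADM and BNIP3 lie to the right under both treatments, ANGPTL4 and EPAS1 farthest to the left, and VEGFA near 0.

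For the 6 genes whose group means spanned at least 1 log2 unit, the genes with the nearest pattern over the 16 arrays were found among all 19775, by the root mean square (RMS) difference of values centred on each gene's own mean. EPAS1, with a span of 3.42, was nearest to KLF7 (RMS 0.115) and TRIM4 (0.166). For VEGFA these were FAM13A (0.0878) and C12orf76 (0.108). NDRG1 was nearest to LDAF1 (0.151) and TRIB3 (0.155). ADM was nearest to FBXO43 (0.124) and ATRNL1 (0.147), and BNIP3 to TRIM8 (0.0912) and IFITM1 (0.102). For ANGPTL4 they were UGT8 (0.191) and POSTN (0.210). None of these nearest genes is among the 10, and no search was run for HIF1A, EGLN1 and EGLN3. The arrays share line and treatment, and the likeness is a description.

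The other components of the oxygen-sensing pathway were counted next, without the genes above. Of 16 measured, 7 rose and 3 fell in MDA-MB-231, with a median change of 0.06, and 10 rose and 4 fell in MCF10A, with a median of 0.39. Over all genes, 25.5% rose and 25.4% fell in MDA-MB-231 with a median of 0.03, and 29.0% rose and 25.2% fell in MCF10A with a median of 0.02, and the counts of every list below stand beside these shares. SIAH2, a ubiquitin ligase that destroys EGLN proteins, rose by 1.00 in MDA-MB-231 and 0.46 in MCF10A. The coactivators EP300 and CREBBP rose by 0.92 and 0.88 in MDA-MB-231 and by 0.61 and 1.08 in MCF10A. CITED2, which competes with the alpha subunits for these coactivators, rose by 0.35 in MDA-MB-231 and 1.92 in MCF10A, a difference of -1.58 (adjusted p = 1.85e-10). VHL rose by 0.40 in MDA-MB-231 and 0.48 in MCF10A. HIF1AN, an asparagine hydroxylase that blocks the coactivators' binding, rose by 0.54 in MDA-MB-231 and 0.15 in MCF10A.

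ARNT, the constant partner, had a change of 0.11 in MDA-MB-231 that was not called and rose by 0.57 in MCF10A, while its relative ARNT2 fell by 0.27 in MDA-MB-231 and 0.58 in MCF10A. The 6 other ARNT probe sets had changes from 0.025 to 0.64 in MDA-MB-231 and from -0.115 to 1.6525 in MCF10A. EGLN2, the third prolyl hydroxylase, had changes of 0.01 in MDA-MB-231 and -0.12 in MCF10A, neither called. P4HTM, a related hydroxylase of the endoplasmic reticulum, fell by 0.47 in MDA-MB-231 and rose by 0.39 in MCF10A, a difference of -0.86. ELOC, a subunit of the VHL ligase, had a change of -0.04 in MDA-MB-231 that was not called and fell by 0.74 in MCF10A.

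Other hypoxia targets outside glycolysis moved differently in the lines. Of 35 measured, 15 rose and 17 fell in MDA-MB-231, with a median change of -0.11, and 23 rose and 7 fell in MCF10A, with a median of 0.53, beside 25.5% and 29.0% of all genes that rose in these lines. With the actin ratio in the fit, 13 rose and 16 fell in MDA-MB-231. The difference of the responses was higher for 6 and lower for 22 of the 35, with a median of -0.75, beside 22.3% higher and 23.6% lower over all genes with a median of 0.01. VLDLR, a lipoprotein receptor, rose by 2.05 in MDA-MB-231 and 3.07 in MCF10A. On MCF10A vehicle arrays VLDLR averaged 4.775, low in the range of all values. CXCR4, a chemokine receptor, fell by 0.60 in MDA-MB-231 and rose by 3.42 in MCF10A, a difference of -4.02 (adjusted p = 1.69e-14). Its mean in MCF10A on vehicle was 3.94, low in the range of all values. The 2 other CXCR4 probe sets had changes of -0.7275 and -0.705 in MDA-MB-231, and of 1.4525 and 1.615 in MCF10A. STC2, a secreted glycoprotein, rose by 0.26 in MDA-MB-231 and 2.40 in MCF10A. DDIT4, an inhibitor of mTORC1, rose more in MDA-MB-231, by 1.92 in MDA-MB-231 and by 0.42 in MCF10A (adjusted p of the difference = 1.85e-11). TFRC, the transferrin receptor, fell by 1.31 in MDA-MB-231 and 0.10 in MCF10A. SAP30, part of a histone deacetylase complex, fell by 0.96 in MDA-MB-231 and 1.32 in MCF10A, and FAM162A, a mitochondrial protein, by 0.71 and 0.77 in the same order of lines.

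Hypoxia targets in glycolysis mostly fell. Of 21 measured, 6 rose and 13 fell in each line, with median changes of -0.25 in MDA-MB-231 and -0.30 in MCF10A. Over all genes 25.4% fell in MDA-MB-231 and 25.2% in MCF10A. With the actin ratio in the fit, 4 of the list rose and 13 fell in MDA-MB-231, and 6 rose and 15 fell in MCF10A. HK2, a hexokinase, fell by 0.62 in MDA-MB-231 and 2.29 in MCF10A. The 2 other HK2 probe sets had changes of -0.94 and -0.90 in MDA-MB-231, and of -1.01 and -0.94 in MCF10A. PDK1, which keeps pyruvate out of the mitochondria, fell by 1.09 in MDA-MB-231 and 0.92 in MCF10A, although another of its probe sets rose by 0.26 in MDA-MB-231. TPI1, a glycolytic isomerase, fell by 0.63 in MDA-MB-231 and 0.81 in MCF10A, and LDHA, which makes lactate, by 0.36 in MDA-MB-231 and 0.35 in MCF10A. GYS1, glycogen synthase, had a change of 0.17 in MDA-MB-231 that was not called and fell by 0.93 in MCF10A.

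Among those that rose, SLC2A3, a glucose transporter, rose by 1.5 in MDA-MB-231 and 0.40 in MCF10A. GBE1, the glycogen branching enzyme, rose by 0.16 in MDA-MB-231 and 1.64 in MCF10A, and PFKFB4, which sets the level of a glycolytic activator, by 0.46 in MDA-MB-231 and 1.13 in MCF10A. The other PFKFB4 probe set had smaller changes, of 0.2075 in MDA-MB-231 and 0.1075 in MCF10A. PFKFB3, a relative of PFKFB4, rose by 0.86 in MDA-MB-231 and fell by 0.41 in MCF10A. SLC2A1, the main glucose transporter, fell by 0.35 in MDA-MB-231 and rose by 0.16 in MCF10A.

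Next come the ligands and receptors of the VEGF and adrenomedullin systems. Of 13 measured, 6 rose and 2 fell in MDA-MB-231 (median change 0.14), and 3 rose and 2 fell in MCF10A (median change -0.0025). The shares over all genes were 25.5% higher and 25.4% lower in MDA-MB-231, and 29.0% higher and 25.2% lower in MCF10A, so both MCF10A counts lay below them. VEGFC, a ligand for lymphatic vessels, rose by 1.31 in MDA-MB-231 and had a change of -0.07 in MCF10A that was not called. VEGFB fell by 0.32 in MDA-MB-231 and had a change of 0.10 in MCF10A that was not called. NRP2, a coreceptor for VEGF ligands, rose by 1.77 in MDA-MB-231 and fell by 0.92 in MCF10A, a difference of 2.69 (adjusted p = 7.19e-14). NRP1, its relative, rose by 0.15 in MDA-MB-231 and fell by 1.40 in MCF10A. The 3 other NRP1 probe sets had changes from 0.235 to 0.7175 in MDA-MB-231 and from -0.2775 to 0.0025 in MCF10A. RAMP1, a partner of calcitonin-family receptors, fell by 0.88 in MDA-MB-231 and rose by 0.88 in MCF10A. KDR, the main VEGF receptor of endothelium, rose by 0.60 in MDA-MB-231 and 0.51 in MCF10A, at low values. Its means with 2DG and on vehicle were 6.325 and 5.73 in MDA-MB-231, and 5.1525 and 4.645 in MCF10A. Of the endothelial markers in MDA-MB-231, PECAM1 rose by 0.93, while CDH5 and VWF had changes of 0.11 and 0.16 that were not called. CDH5 was dim there, with means of 4.9 with 2DG and 4.795 on vehicle.

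Relatives of ANGPTL4, NDRG1 and CA9 were counted in the same way. Of 9 measured, 1 rose and 4 fell in MDA-MB-231, with a median change of -0.07, and 4 fell in MCF10A, with a median of -0.11, where the other 5 had changes below 0 that were not called. Over all genes 25.5% rose and 25.4% fell in MDA-MB-231, and 25.2% fell in MCF10A. The carbonic anhydrase genes CA2 and CA12 fell by 1.21 and 0.95 in MDA-MB-231 and by 1.09 and 0.46 in MCF10A. CA13, another carbonic anhydrase gene, rose by 0.21 in MDA-MB-231 and fell by 0.52 in MCF10A.

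Mitophagy receptors and relatives of BNIP3 were the last list. Of 9 measured, 6 rose and 2 fell in MDA-MB-231, with a median change of 0.23, and 5 rose and 1 fell in MCF10A, with a median of 0.19, beside 25.5% and 29.0% of all genes that rose in these lines. With the actin ratio as a covariate, 4 rose and 2 fell in MDA-MB-231. OPTN, an autophagy receptor, rose by 1.37 in MDA-MB-231 and 1.25 in MCF10A. PINK1, a kinase that marks damaged mitochondria, rose by 0.75 in MDA-MB-231 and 2.01 in MCF10A. BNIP3L, the closest relative of BNIP3, fell by 0.75 in MDA-MB-231 and rose by 1.15 in MCF10A, a difference of -1.90 (adjusted p = 1.31e-12), though another BNIP3L probe set rose by 0.31 in MDA-MB-231. PHB2, an inner membrane receptor, fell by 0.51 in MDA-MB-231 and 0.37 in MCF10A. BNIP3 and BNIP3L thus had the same pair of signs on their brightest probe sets, down in MDA-MB-231 and up in MCF10A.

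**Figure D5:**
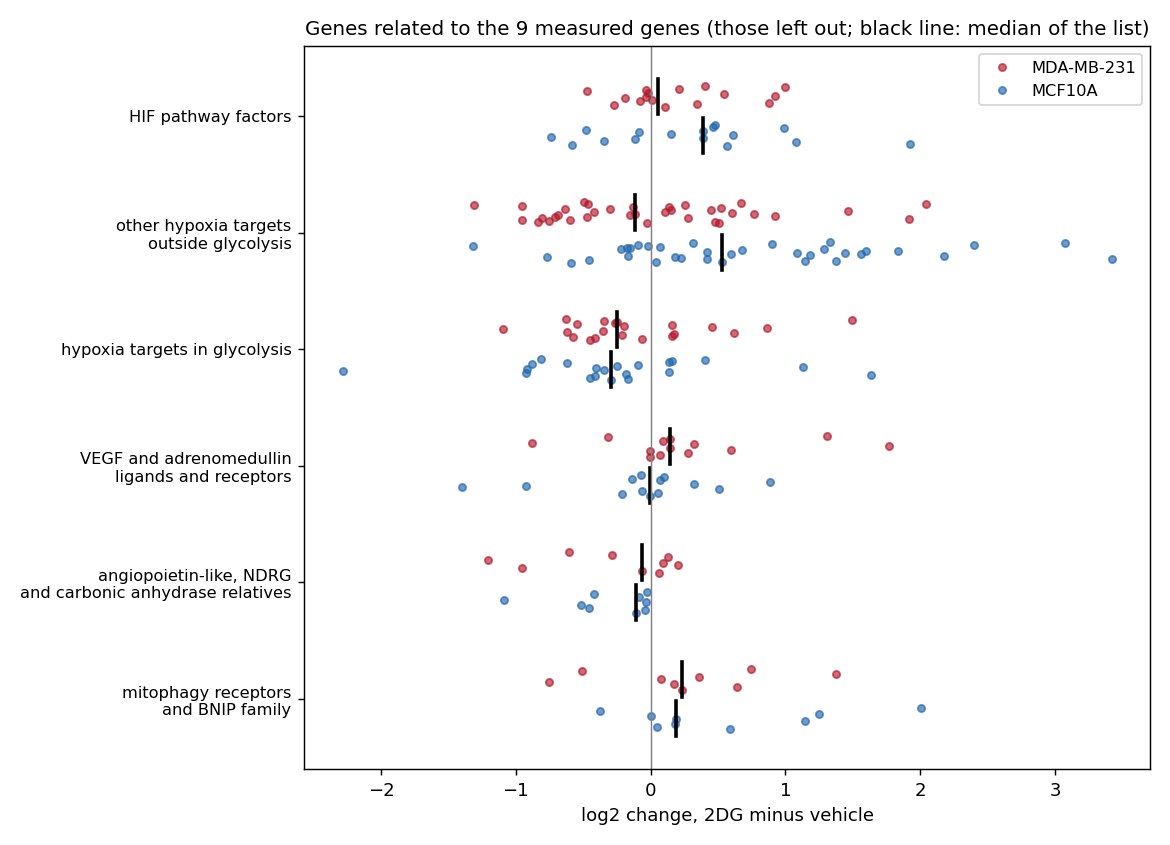
Log2 change with 2DG relative to vehicle (x axis) for the genes of 6 related lists without the 9 genes, with 1 point per gene, MDA-MB-231 above MCF10A in each list and a black line at the median of the list. The medians of the hypoxia targets outside glycolysis lie at -0.11 in MDA-MB-231 and 0.53 in MCF10A, and those of the targets in glycolysis lie left of 0 in both lines.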

How the data were processed

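RNA of 16 samples was measured on 1-colour Affymetrix arrays after 3' IVT labelling, per the labels' protocols. The authors deposited log2 values made with RMA (background correction, quantile normalization and probe summary), per the submitters' processing notes. Its version is not given in the sources used here. RMA compresses low signals, probes can saturate at high ones, and 3' labelling makes values depend on RNA integrity. The number of arrays limits the precision. The table held 54675 probe sets, 62 of them controls. The supplied platform annotation gave 1 gene to 41091, several to 1801 (left out) and no row to 11777 (not used here). Entrez numbers found 41037 in RefSeq's table of GRCh38.p14 and changed no symbol.

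Each of 19775 genes took its probe set with the highest mean. limma 3.58.1 in R 4.3.3 (lmFit, eBayes) fitted 4 group means over all 16 arrays, leaving 12 residual degrees of freedom, with two-sided tests and Benjamini-Hochberg adjustment over all genes. A single probe set's p was adjusted over all non-control probe sets. No filter on dim genes was used. The fit was tested on simulated data. The members, gene lists and tests were chosen with earlier results of these data known, so counts over members and lists are descriptions.

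The genes named were the 10 members, the 2 called genes per list and line with the largest rise and fall, 11 genes of the pathway in every case, and the 2 genes nearest in pattern. Alternatives for the values were the mean of all probe sets, no shared probe sets, no dim genes, equal array medians and repeated quantile normalization. Those for the fit were trend and robust eBayes, array weights and only the arrays of the groups compared. Others were the replicate letter as a block, the actin ratio as a covariate, adjustment over all probe sets, and each array left out. Added after seeing the data were the list counts without MDA-MB-231 vehicle replicate B and with the actin ratio.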

Additional observations from a re-analysis of the deposited data

Results flagged for a closer look

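Of 36 groups of 4 arrays tested, 1 per gene and group, 2 held an array that stood apart by Dixon's criterion, which chance passes in about 1 of 20 groups. HIF1A had 13.39 in MCF10A vehicle replicate B, where the other 3 arrays had 13.37, a gap of 0.02 that is close to the rounding of the values. EGLN3 had 5.78 in MDA-MB-231 2DG replicate D, 0.42 under the nearest array.

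The responses to 2DG differed between the lines for 7 genes, by the test of the difference in limma (MDA-MB-231 minus MCF10A). The differences were 1.85 for ANGPTL4 (adjusted p = 2.63e-12), -1.26 for ADM (adjusted p = 3.55e-11), -0.51 for BNIP3 (adjusted p = 4.88e-07), -0.28 for EGLN1 (adjusted p = 0.0013), 0.23 for EPAS1 (adjusted p = 0.00219), -0.23 for VEGFA (adjusted p = 0.0412) and -0.19 for HIF1A (adjusted p = 0.0019). Those of EPAS1, EGLN1 and VEGFA had the opposite sign on the other probe sets of these genes.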

How the results depend on the processing

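The changes of EPAS1, VEGFA, NDRG1 and ADM in both lines and of ANGPTL4 in MCF10A kept their direction and call under every alternative in which they were measured. Their sizes moved by over 1.5 times only for EPAS1, whose mean over all probe sets rose by 0.60 in MDA-MB-231 and 0.62 in MCF10A. With 1 array left out, members called ranged from 6 to 7 in MDA-MB-231, 7 to 8 in MCF10A and 6 to 7 for the difference. Without shared probe sets, 5 of 5 measured members were called in MCF10A, 4 of 5 between the lines with 2DG and 5 of 5 on vehicle. With the mean of all probe sets the sign turned for EGLN1 in MDA-MB-231 (0.40, adjusted p = 3.69e-08), in MCF10A (-0.005) and in the difference (0.41, adjusted p = 3.56e-06), for EGLN3 in MDA-MB-231 (-0.13) and MCF10A (-0.01), for the difference of EPAS1 (-0.0183) and VEGFA (0.10), and for VEGFA between the lines with 2DG (0.11). Repeated quantile normalization gave EGLN3 -0.000703 and ANGPTL4 0.0117 in MDA-MB-231. The actin ratio as a covariate gave NDRG1 a difference of -0.0222 and VEGFA -0.0339 between the lines on vehicle, which was -0.0192 without MDA-MB-231 vehicle replicate B. EGLN3 in MDA-MB-231 ranged from -0.0708 to 0.128 with 1 array left out.

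HIF1A in MDA-MB-231 was called without dim genes (adjusted p = 0.0283), with quantile normalization (0.0222) and with trend and robust eBayes (0.00445). The rise of BNIP3 in MCF10A lost its call with the mean of probe sets (adjusted p = 0.392) and equal medians (0.0576), and that of EGLN1 with equal medians (0.0971), the actin ratio (0.0571) and 4 of the arrays left out. HIF1A between the lines with 2DG had adjusted p between 0.00371 and 0.117 over the alternatives. EGLN3, with group means between 6.10 and 7.04, and the dimmest EPAS1 probe set, at 3.44, lie where RMA understates changes. The cause of these changes was not tested. Over all genes, deviations of arrays with the same letter correlated weakly, between -0.099 and 0.088, which does not settle pairing for a single gene. With the letter as a replicate block, 6 members were called in MDA-MB-231, 9 in MCF10A and 6 for the difference, where VEGFA had an adjusted p of 0.0911. The member that gained its call in MCF10A was EGLN3 (adjusted p = 0.041).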
